A study of Mus musculus with 12 samples.

Results

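The cytosolic ribosomal protein (RP) genes were examined in mouse dendritic cells that had been left unstimulated or treated with interferon-β (IFN-β), with or without knockdown of *Ppargc1b*. Members were the genes of the count table whose symbol begins with Rpl or Rps followed by a digit, together with *Rplp0*, *Rplp1*, *Rplp2* and *Rpsa*, leaving out named pseudogenes, the Rps6k kinases and binding proteins, and with at least 10 counts in every library. This rule gave 88 of the 55471 genes. Of these, 46 encode proteins of the large (60S) subunit, 31 encode proteins of the small (40S) subunit, and 11 are paralogs or retrocopies of such genes. Another 5 matching names (*Rpl10l*, *Rpl39l*, *Rps12l1*, *Rps23rg1* and *Rps3a3*) fell short of the minimum in at least 1 library. The rule used no comparison between groups.

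Bone marrow of female C57BL/6 mice, 8 to 20 weeks of age by the study's methods, was cultured with GM-CSF, a cytokine that drives myeloid growth, and given a retroviral vector that encodes a short hairpin RNA (shRNA) and human CD8, a surface tag by which the infected cells were sorted. The shRNA targeted firefly luciferase (shControl) or *Ppargc1b* (sh*Ppargc1b*), which encodes the transcriptional co-activator PGC-1β, and the cells were left unstimulated or given IFN-β for 6 h. The 4 groups held 3 libraries each of ribosomal RNA-depleted total RNA. The labels do not tell which hairpin against *Ppargc1b* was used, the sorted cells carried a retroviral insertion, and the labels do not say whether the 3 libraries of a group came from separate mice, so p-values measure the spread between these libraries, which may be technical.

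Ribosomal proteins assemble with ribosomal RNA in the nucleolus into the 2 subunits that carry out translation in the cytosol. Their mRNAs are abundant and are known for a 5′ terminal oligopyrimidine (TOP) tract, a stretch of C and T bases that begins at the cap and places their translation under mTORC1 and LARP1. Type I interferon is known to induce antiviral genes, some of which restrain translation. The comparisons ask how the RP mRNAs of these cells respond to IFN-β, and whether PGC-1β knockdown alters their levels or that response.

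Libraries held 49919648 to 77726101 counts. All 10 interferon-response genes examined rose in both IFN-β comparisons, with a median log2 fold change of 5.11 in shControl and 4.53 in sh*Ppargc1b* cells and the chemokine gene *Cxcl10* first (6.44 ± 0.22 SE, edgeR adjusted p = 9.18e-13). *Ppargc1b* stood at 33.4, 33.3 and 36.7 CPM (counts per 1000000 counts) in the unstimulated shControl libraries and at 18.6, 19.3 and 20.3 CPM in those with the knockdown, without overlap (log2 fold change -0.83 ± 0.11 SE, edgeR adjusted p = 3.2e-05). With IFN-β it stood at 31.4, 23.6 and 28.4 CPM against 19.6, 15.5 and 20.9 CPM (-0.57 ± 0.11, adjusted p = 0.000945). Dendritic and macrophage markers were both high: the summed CPM of 8 dendritic genes (such as *Itgax* and *Cd74*) ranged from 3540 to 5180 over all libraries and that of 8 macrophage genes (such as *Csf1r* and *Adgre1*) from 2390 to 3370. No library held more than 15 counts of any of 12 lymphocyte and erythroid markers.

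The start of the RP mRNAs was first read from the RefSeq promoter sequences (GRCm38.p6), which covered 65 of the 88 members. A tract was counted where a C within 5 bases of the annotated start opened a run of at least 5 pyrimidines. Such a tract was found in 30 of the 65 members (46.2%) and in 20.3% of the 11258 promoters of tested genes. The following 30-base windows run 5′ to 3′ from 8 bases before the annotated start, with the tract in capitals; they show 5 members with a tract, a paralog, the TOP gene *Rack1* and 2 members in which no tract was found at the annotated start.
*Rps6* (chr4:86857346-86857375, minus strand): agtcgggCCTCTTTTTCgtgacgcctccca
*Rpl38* (chr11:114668572-114668601, plus strand): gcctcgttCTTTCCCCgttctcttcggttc
*Rps27* (chr3:90213627-90213656, minus strand): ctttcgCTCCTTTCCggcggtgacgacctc
*Rplp2* (chr7:141447643-141447672, plus strand): gcgtCTTCCTTTCgccgccggacgccgccg
*Rpl13a* (chr7:45128724-45128753, minus strand): tgcgacaagaCCTCCTCCTTTCCCaggcgg
*Rps27l* (chr9:66946078-66946107, plus strand): tccccgccgCCTCTatcccggaagttgctg
*Rack1* (chr11:48800352-48800381, plus strand): cgctCTTTCTTTTTCTCCacagggtcgtgg
*Rpl5* (chr5:107900520-107900549, plus strand): tcgcttgcgtgctggtggtgctacatactg
*Rplp0* (chr5:115559459-115559488, plus strand): ggtttcgaggaccgcctggttctcctataa
Over the whole 300-base promoter, both strands, the ETS-type motif CCGGAAG stood in 36.9% of the members and 17.5% of all promoters of tested genes, the YY1-type motif AAGATGG in 13.8% and 7.2%, the GC box GGGCGG in 58.5% and 61.3%, the E box CACGTG in 7.69% and 9.78%, and the TATA box TATAAA in 10.8% and 7.83%. These are matches of letters within a window, and no binding was measured.

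All members together took 0.992% to 1.1% of the counts in the 6 unstimulated libraries and 0.747% to 0.826% in the 6 libraries with IFN-β, and the 2 ranges did not overlap. After TMM scaling (the trimmed mean of M-values), which sets libraries level over most genes, their summed level was 9532.7 ± 336 CPM in unstimulated shControl cells and 8264.1 ± 113 CPM with IFN-β (SD, n = 3). In sh*Ppargc1b* cells it was 9678.4 ± 465 CPM unstimulated and 8572.7 ± 408 CPM with IFN-β. The lowest unstimulated library (9147 CPM) lay above the highest library with IFN-β (8846 CPM). The log2 ratio of the group means was -0.21 in shControl and -0.18 in sh*Ppargc1b* cells. In bulk RNA, a smaller share of cells rich in RP mRNA and less RP mRNA per cell cannot be told apart, and the total RNA of a cell was not measured.

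**Figure D1:**
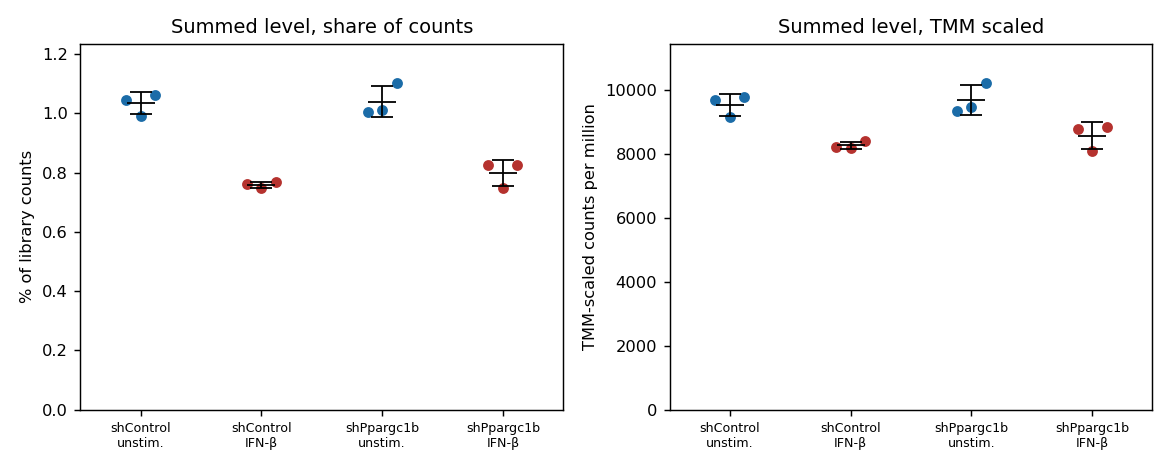
Summed level of the 88 RP genes in each library, as a percentage of all counts (left) and in TMM-scaled CPM (right), in the 4 groups. Points are libraries, and bars give the mean ± SD (n = 3); all 6 libraries with IFN-β lie below all 6 unstimulated libraries on both scales.

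The scaling sets how large this fall is. TMM factors were 1.07 to 1.09 in unstimulated libraries and 0.914 to 0.941 with IFN-β. Where library totals alone were used, the median log2 fold change of all 18228 genes tested moved from -0.03 to -0.27 in shControl and from -0.02 to -0.22 in sh*Ppargc1b* cells, and that of the members from -0.22 to -0.46 and from -0.17 to -0.38. The gap between members and all genes was -0.182 and -0.155 (log2) under both scalings. A change of scaling shifts every gene of a comparison by about the same amount, so this gap could not differ between them. Log2 fold changes below are TMM-scaled, with standard errors and Benjamini-Hochberg adjusted p-values from edgeR's quasi-likelihood test.

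In shControl cells, IFN-β lowered most RP mRNAs by a small amount: 56 of the 88 members fell and 1 rose, where 24.6% of all genes tested fell and 23.7% rose. The fall reached both subunits. Of the 60S genes, 34 of 46 fell and none rose (median log2 fold change -0.22, range -0.78 to -0.03), and of the 40S genes 21 of 31 fell and 1 rose (median -0.22, range -0.41 to 0.23). Over the 77 genes of both subunits the median corresponded to 13.9% less mRNA. In 61 members the 3 libraries with IFN-β all lay below the 3 without, against 29.4% of all genes tested. The ratio of summed 60S to summed 40S level was 1.27 in unstimulated shControl cells and 1.26 with IFN-β.

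The 3 largest falls that passed the test were in *Rpl13a*, *Rpl3* and *Rpl10a*, all of the large subunit. *Rpl3* (ENSMUSG00000060036; chr15:80077791-80091868, minus strand, GRCm38), whose protein lies near the peptidyl transferase centre, stood at 139.7, 132.9 and 143.1 CPM unstimulated and at 95.7, 91.8 and 95.4 CPM with IFN-β. The groups were far apart, and the level fell by 31.9% (log2 fold change -0.56 ± 0.06, adjusted p = 7.05e-07). *Rpl10a* (chr17:28328471-28331033, plus strand), a gene of the L1 stalk, stood at 47.3, 44.7 and 57.4 CPM and at 35.2, 34.4 and 37.0 CPM (-0.49 ± 0.09, adjusted p = 0.000199). *Rpl13a* (chr7:45125558-45128761, minus strand), whose protein is also known for leaving the ribosome in interferon-γ-treated monocytes to silence inflammatory transcripts, stood at 5.84, 4.69 and 5.96 CPM and at 3.44, 3.5 and 2.72 CPM (-0.78 ± 0.13, adjusted p = 0.000157). The counts of *Rpl13a* were low for an RP gene. Exons of other genes on the same strand, *Gm45713* among them, cover 35.4% of its exon bases, and the part of this in its level was not tested.

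*Rpl5* and *Rpl11* encode the proteins that join 5S ribosomal RNA in the large subunit and, outside the ribosome, are known to bind MDM2. *Rpl5* (chr5:107900502-107909005, plus strand) stood at 90.5, 72.8 and 82.2 CPM unstimulated and at 60.7, 60.8 and 56.0 CPM with IFN-β (-0.47 ± 0.07, adjusted p = 6.64e-05). *Rpl11* stood at 46.7, 37.9 and 46.0 CPM and at 35.9, 33.5 and 33.9 CPM (-0.34 ± 0.08, adjusted p = 0.00216). Neither gene's groups overlapped. The P stalk genes, whose products recruit elongation factors to the ribosome, had smaller falls, a difference that was not tested. Their median of -0.22 was also that of all members. *Rplp0* stood at 335.3, 360.1 and 357.5 CPM and at 313.0, 311.9 and 320.1 CPM (-0.16 ± 0.05, adjusted p = 0.0132), and *Rplp1* (-0.22 ± 0.08, adjusted p = 0.0373) and *Rplp2* (-0.23 ± 0.08, adjusted p = 0.0211) also fell. The 3 stalk calls are the less firm ones: each was lost when 1 library was left out (IFN-β replicate 2 of shControl for all 3), with adjusted p up to 0.079, 0.185 and 0.0932.

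Of the 40S genes, *Rps6*, whose protein is the classic substrate of the S6 kinases downstream of mTORC1, stood at 68.6, 66.3 and 69.9 CPM unstimulated and at 53.1, 53.5 and 52.2 CPM with IFN-β in shControl cells. In sh*Ppargc1b* cells it stood at 67.9, 70.2 and 77.4 CPM and at 59.7, 54.0 and 58.6 CPM, and the groups stood apart in both. *Rpsa*, which also encodes the laminin receptor, had a log2 fold change of -0.38 ± 0.08 in shControl cells (adjusted p = 0.00062).

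*Rps20*, a gene of the 40S head, was the single member that rose. It stood at 98.2, 91.9 and 98.8 CPM unstimulated and at 118.0, 105.9 and 115.7 CPM with IFN-β, without overlap (0.23 ± 0.06, adjusted p = 0.00647). Scaled by library totals the difference was -0.01 (adjusted p = 0.942), so the direction of *Rps20* depends on the scaling. Its annotated exons add up to 4080 bases and its annotated principal transcript to 3706 bases, while the median principal transcript of the 60S and 40S genes was 729 bases. Both lengths of *Rps20* cover most of the gene (chr4:3831334-3835665) and need not be that of the mRNA in these cells. *Rps24*, also of the 40S subunit, stood at 220.1, 202.5 and 214.8 CPM and at 211.8, 217.0 and 211.3 CPM (0.01 ± 0.04, adjusted p = 0.921), and its groups overlapped. *Rpl7* (-0.06 ± 0.04) and *Rpl34* (-0.03 ± 0.05) did not pass the test either.

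**Figure D2:**
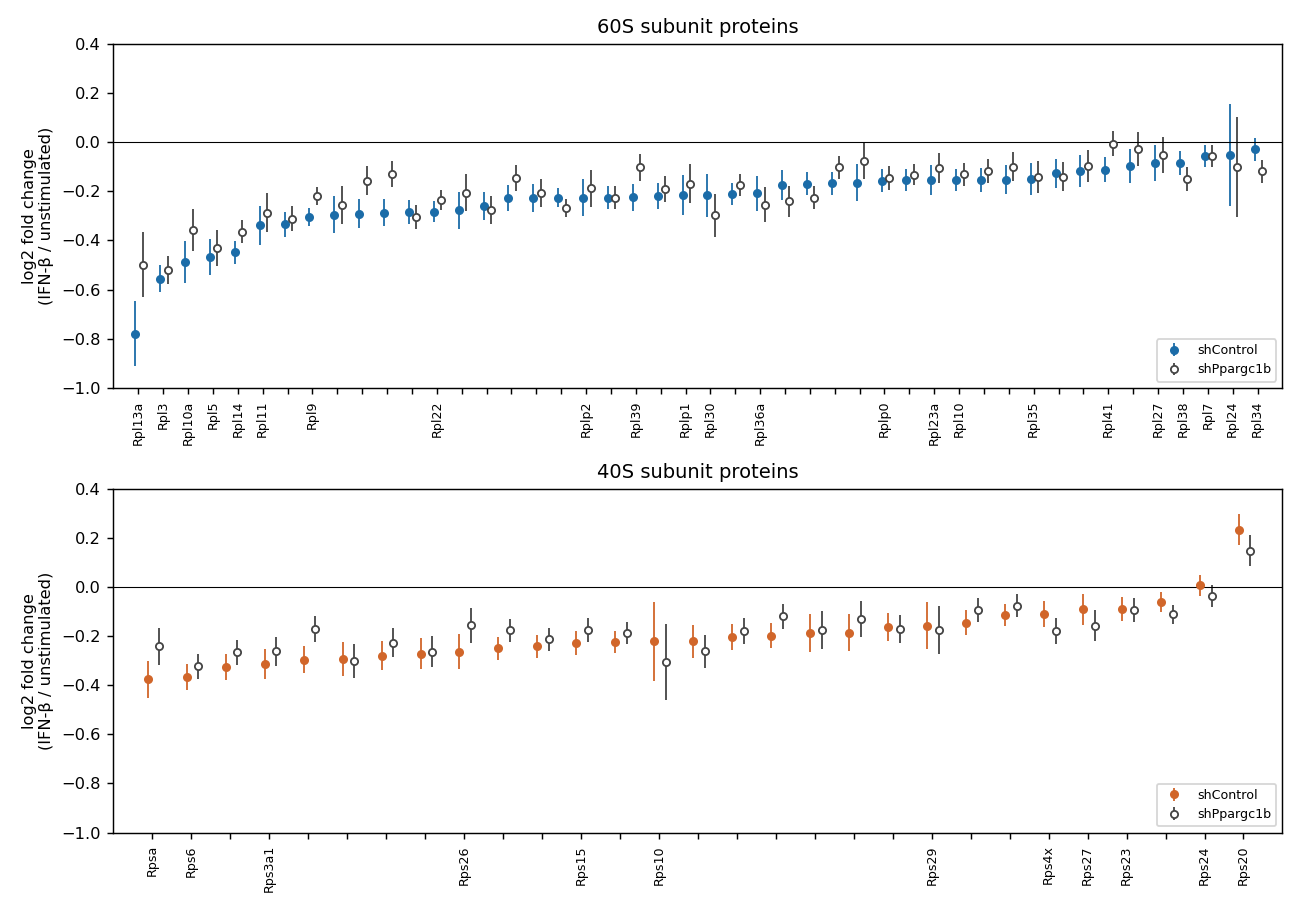
Log2 fold change (IFN-β over unstimulated) of single 60S genes (top) and 40S genes (bottom) in shControl cells (filled points) and sh*Ppargc1b* cells (open points), ordered by the value in shControl; bars are standard errors, genes named in the text are labelled, and genes not reported here are left out. Nearly all points lie below 0 in both, *Rpl13a* and *Rpl3* are lowest, and *Rps20* is above 0.

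In sh*Ppargc1b* cells, 48 members fell with IFN-β and 1 rose, where 21.2% of all genes fell and 21.4% rose. The median log2 fold change was -0.17 over the 46 60S genes (28 fell) and -0.18 over the 31 40S genes (19 fell). In 52 members the libraries with IFN-β all lay below those without, against 25.4% of all genes. *Rpl3* stood at 129.3, 136.8 and 149.2 CPM and at 98.1, 89.5 and 102.1 CPM (-0.52 ± 0.06, adjusted p = 1.99e-06). *Rpl13a* (-0.50 ± 0.13, adjusted p = 0.00614) and *Rpl5* (-0.43 ± 0.07, adjusted p = 0.000195) were the other largest falls. The number of calls here rested in part on single libraries: 32 members passed without unstimulated replicate 3, in which the summed level was highest, and 35 without IFN-β replicate 2, in which it was lowest. Of these members, 32 and 33 fell, where 17.7% and 18.5% of all genes fell in the same fits.

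The 2 IFN-β comparisons share no library, but both come from 1 fit of all 12 libraries. Of the 60 members that fell in either, 44 fell in both, which is 78.6% of the shControl list and 91.7% of the sh*Ppargc1b* list. Of all genes tested, 24.6% fell in shControl and 21.2% in sh*Ppargc1b* cells, and the share that fell in both was not counted. Over the 77 genes of both subunits the 2 sets of log2 fold changes had a Spearman rho of 0.81, as a description over genes that come from the same 12 libraries. *Rpl3*, *Rpl13a*, *Rpl5*, *Rpl14* and *Rpl10a* were low in both, and *Rps20*, *Rps24* and *Rpl7* were near or above 0 in both. The remaining 26 members passed in neither comparison in either direction. They were 9 paralogs or retrocopies and 17 subunit genes, among them *Rpl7*, *Rpl27*, *Rps23*, *Rps24*, *Rps27* and *Rps29*.

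The difference between the 2 responses was tested directly as an interaction. No member passed at an adjusted p under 0.05, where 0.73% of all genes tested did. At an unadjusted p under 0.05 there were also 0 of 88 members, against 10.5% of all genes, and DESeq2's Wald test called 0. The estimate was above 0, that is a smaller fall with the knockdown, in 60 of 88 members, with a median of 0.04 and a range over the subunit genes of -0.09 to 0.28. The median standard error of this difference was 0.08, so differences of that size between the 2 responses were not detectable here.

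**Figure D3:**
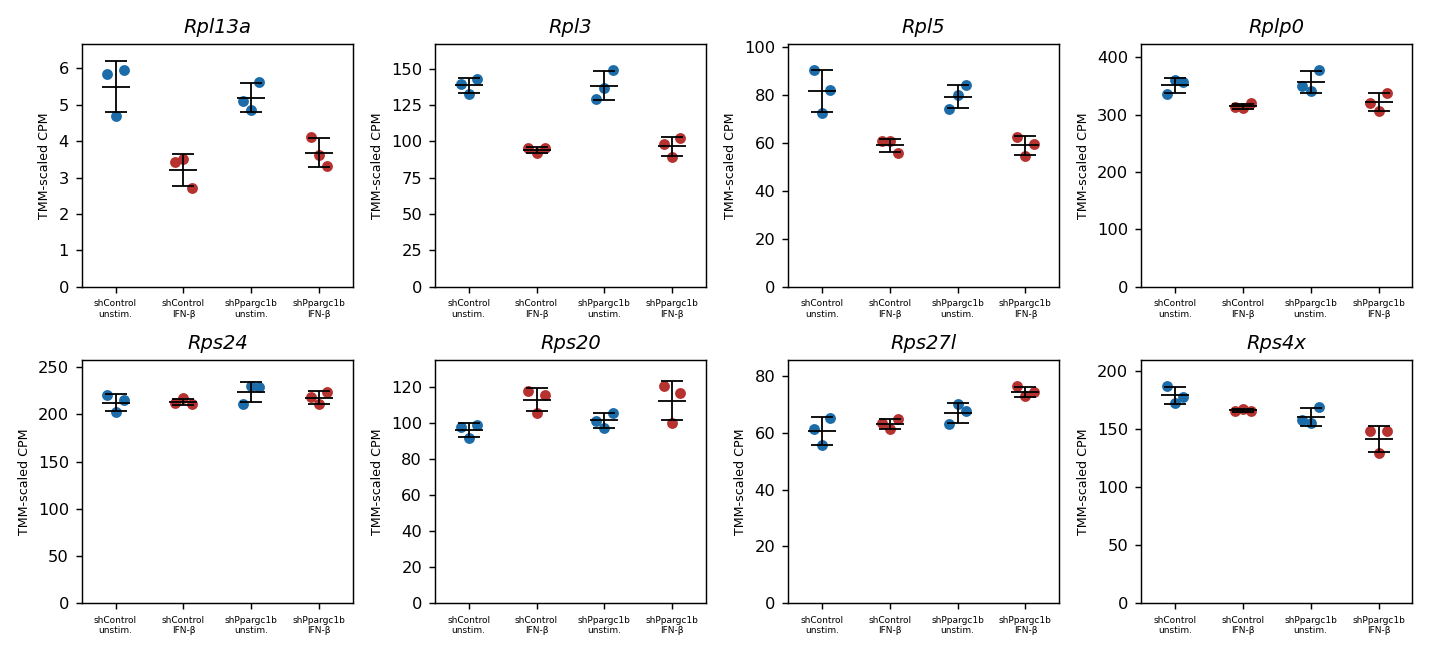
TMM-scaled CPM of 8 members in every library of the 4 groups (blue, unstimulated; red, IFN-β), with mean ± SD (n = 3) and axes from 0. *Rpl13a*, *Rpl3*, *Rpl5* and *Rplp0* are lower with IFN-β, *Rps24* overlaps, *Rps20* is higher with IFN-β in shControl cells, *Rps27l* is highest in sh*Ppargc1b* cells with IFN-β, and *Rps4x* is lower with the knockdown.

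The knockdown itself gave few calls among the RP mRNAs. Without IFN-β, 2 of 88 members passed the test, where 23.6% of all genes did. *Rpl38*, which takes part in the translation of Hox mRNAs in the embryo, rose from 59.5, 58.4 and 63.3 CPM to 66.4, 65.1 and 71.6 CPM (0.16 ± 0.05, adjusted p = 0.0231). *Rps4x*, an X-linked 40S gene, fell from 186.5, 171.8 and 177.6 CPM to 157.1, 154.6 and 168.4 CPM (-0.16 ± 0.05, adjusted p = 0.0418). Neither pair of groups overlapped, but the adjusted p reached 0.109 for *Rpl38* and 0.153 for *Rps4x* when 1 library was left out. The *Rpl38* call was lost without unstimulated shControl replicate 1 or 2 or unstimulated sh*Ppargc1b* replicate 3, and the *Rps4x* call under 9 of the 20 alternatives run.

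With IFN-β, 6 members differed between sh*Ppargc1b* and shControl cells, where 24.2% of all genes did. The estimate was above 0 in 71 of 88 members, with a median of 0.07 against -0.01 over all genes. In 19 members the 3 knockdown libraries all lay above those of shControl and in 3 below, against 18% and 20.7% of all genes. *Rps4x* was again lower, at 147.8, 128.6 and 147.6 CPM against 165.0, 166.8 and 165.1 CPM (-0.23 ± 0.05, adjusted p = 0.0053), and *Rpl30*, of the large subunit, was lower at 40.3, 30.8 and 38.0 CPM against 46.6, 41.1 and 44.5 CPM (-0.28 ± 0.09, adjusted p = 0.0327). *Rps27l*, *Rpl9*, *Rpl41* and *Rps26* were higher, by 0.24 ± 0.06 (adjusted p = 0.00533), 0.16 ± 0.04 (adjusted p = 0.00563), 0.17 ± 0.05 (adjusted p = 0.0201) and 0.21 ± 0.07 (adjusted p = 0.0478). The groups of all 6 genes stood apart. The calls for *Rpl30*, *Rpl41* and *Rps26* were lost when 1 of several libraries was left out (IFN-β shControl replicate 1 in each case), with adjusted p up to 0.107, 0.0944 and 0.268, and those for *Rps4x* and *Rps27l* were kept under every alternative run. Counts on annotated pseudogenes of *Rpl41* were 13.7% of those on the gene and its pseudogenes together. The number of calls itself moved with single libraries: it was 13 to 16 without any 1 unstimulated library and 3 without IFN-β shControl replicate 1. Of the 13 to 16, 12 to 15 were higher and 1 or 2 lower, where 10.4% to 11% of all genes were lower. Of the 3, 2 were higher and 1 lower, where 11.6% of all genes were lower.

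Some RP paralogs are expressed in few tissues or have duties of their own. *Rps27l*, a p53 target, was the one expressed near the level of its parent: it stood at 61.4, 55.6 and 65.2 CPM in unstimulated shControl cells, where *Rps27* stood at 83.4, 71.4 and 76.6 CPM. In sh*Ppargc1b* cells *Rps27l* rose with IFN-β from 63.0, 70.1 and 67.6 CPM to 76.5, 72.9 and 74.3 CPM (0.16 ± 0.06, adjusted p = 0.0336), whereas in shControl cells it had a log2 fold change of 0.06 ± 0.06 (adjusted p = 0.426). With library totals these values were -0.05 (adjusted p = 0.513) and -0.18 (adjusted p = 0.0122), so both directions depend on the scaling. The rise in sh*Ppargc1b* cells also lost its call with every gene kept (adjusted p = 0.0856) and without replicate 1 or 3 of either sh*Ppargc1b* group (0.0594 to 0.128). *Rps27* stood at -0.09 ± 0.06 and -0.16 ± 0.06 and passed in neither. *Rpl7l1*, a nucleolar factor related to *Rpl7*, fell from 47.0, 48.3 and 51.6 CPM to 36.5, 37.2 and 37.0 CPM in shControl cells (-0.41 ± 0.05, adjusted p = 2.14e-06) and also fell in sh*Ppargc1b* cells (-0.29 ± 0.05, adjusted p = 9.48e-05), while its parent *Rpl7* did not pass in either. *Rpl22l1* (-0.29 ± 0.14, adjusted p = 0.116) had a fold change like that of *Rpl22*, which did pass (-0.28 ± 0.04, adjusted p = 3.71e-05), at a far lower level of 12.2 against 92.6 CPM. The muscle gene *Rpl3l* stood at 0.91, 0.786 and 0.798 CPM, and *Rpl36al*, *Rps4l* and *Rps27rt* at group means of 0.789, 1.9 and 0.941 CPM, and none of these 4 passed. Among the other parent genes, *Rpl10* (-0.15 ± 0.05, adjusted p = 0.0122), *Rpl36a* (-0.21, adjusted p = 0.0254) and *Rpl39* (-0.22 ± 0.06, adjusted p = 0.00358) fell in shControl cells. The *Rpl10* call was lost without IFN-β shControl replicate 1 or 3 (adjusted p up to 0.0833) and the *Rpl36a* call without unstimulated shControl replicate 1 or IFN-β shControl replicate 2 or 3 (up to 0.153). In all, 1 of the 11 paralogs and retrocopies fell in shControl cells and none rose, where 24.6% of all genes tested fell and 23.7% rose.

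Per kilobase of annotated exon, the level of RP genes differed widely. This length sums all annotated exons and can exceed the principal transcript: 2691 against 577 bases for *Rps25*, 630 against 500 for *Rps15*. The order of genes by level therefore depends on the length used. In unstimulated shControl cells the highest were *Rps15* (219.5 CPM per kb), *Rplp0* (211.6) and *Rps3a1* (204.9), and the lowest were *Rpl3l* (0.506), *Rpl36al* (0.583) and *Rpl32l* (0.743), all 3 paralogs or retrocopies. The SDs of the 3 highest were 10.3, 8.23 and 4.34 CPM per kb. The libraries of *Rplp0* overlapped those of both neighbours, and those of *Rps15* all lay above those of *Rps3a1*. The median over the 77 subunit genes was 55.0 CPM per kb unstimulated and 48.5 with IFN-β. The order was nearly the same with IFN-β (Spearman rho 0.99 over the 77 genes, as a description). The lowest subunit genes were *Rps10* (1.06), *Rpl24* (1.14) and *Rpl13a* (2.6), 3 genes that share exon bases on the same strand with other annotated genes (20.6%, 47.0% and 35.4% of their exon bases). Annotated pseudogenes held 34.3%, 73.9% and 33.3% of the counts on these genes and their pseudogenes together.

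RP genes have many processed pseudogenes, and read pairs that fit in several places were not counted. The strand setting of the counting is not known, and 66.2% of the exon bases of *Rpl35*, 59.7% of *Rpl23a* and 24.3% of *Rpl5* lie opposite exons of other genes. Of the 88 members, 80 shared at least 1 window of 100 bases of their transcript with the transcript of another annotated gene, and 41 shared more than 50 percent of their windows. The median share was 45.8%, and 8 members shared none. Among those 8, 5 fell in shControl cells, where 24.6% of all genes tested did. The median log2 fold change was -0.22 over the 41 members with more than 50 percent shared and -0.18 over the other 47. The members' 1377 annotated pseudogenes held 2.95% of the joint counts. With each member's counts summed with those of its pseudogenes, 51 members fell and 1 rose in shControl cells, with a median of -0.18. In sh*Ppargc1b* cells 46 fell and 1 rose. Of all genes in those fits, 23.8% fell in shControl and 20.9% in sh*Ppargc1b* cells. Over the 77 subunit genes, the log2 fold change in shControl cells had a Spearman rho of -0.25 with transcript length, -0.16 with the share of windows and 0.03 with the level, all given as descriptions.

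**Figure D4:**
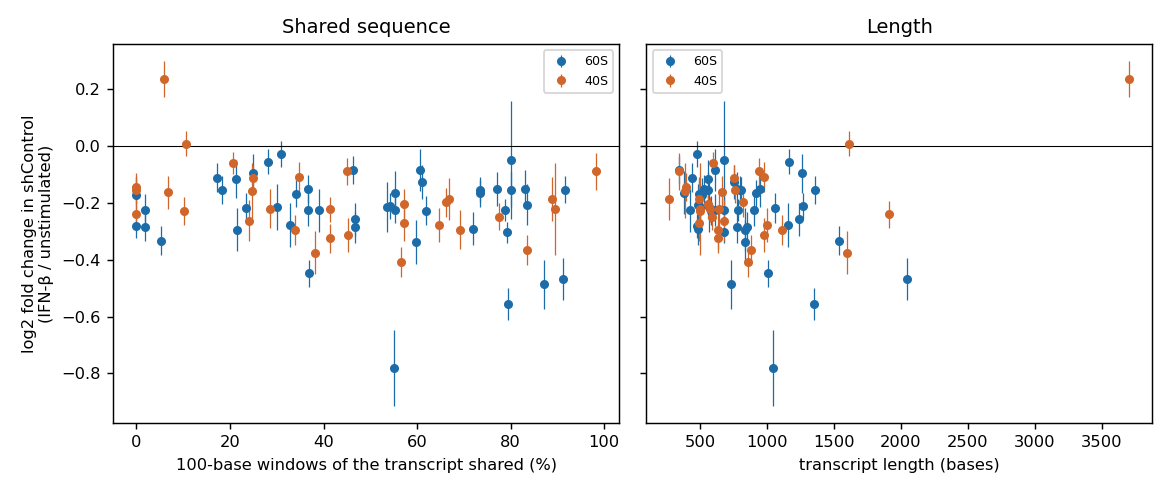
Log2 fold change with IFN-β in shControl cells (± SE) of the 77 subunit genes against the percentage of 100-base transcript windows found in other annotated transcripts (left) and against transcript length in bases (right). Values below 0 are found over the whole range of shares and of lengths below that of *Rps20*, the longest annotated transcript, which stands at 0.23.

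Members with and without a tract at the annotated start had like medians. In shControl cells, the median log2 fold change was -0.22 over 26 subunit genes with a tract and -0.22 over 31 without, and in sh*Ppargc1b* cells it was -0.16 and -0.19. RefSeq starts need not be the starts used in these cells.

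Other genes of translation were set beside the members. The 17 translation factors and other TOP genes fell in 13 and rose in 0 cases in shControl cells (median -0.27), with the same counts in sh*Ppargc1b* cells (median -0.28). *Eef1a1*, the elongation factor that brings aminoacyl-tRNA to the ribosome, stood at 2879 CPM unstimulated and 2544 CPM with IFN-β (group means, -0.18 ± 0.04, adjusted p = 0.00221), and *Eef2*, which moves the ribosome along, at 941.7 and 731.9 CPM (-0.36 ± 0.05, adjusted p = 2.6e-05). *Rack1*, a scaffold on the 40S subunit, fell by 0.27 ± 0.05 on the log2 scale (adjusted p = 0.000476), and *Eif4b* had the largest fall of the list (-0.62 ± 0.04, adjusted p = 9.85e-10). *Fau*, which encodes a 40S protein fused to a ubiquitin-like one and lies outside the name rule, did not pass (-0.08 ± 0.05, adjusted p = 0.187).

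The genes that build ribosomes had lower medians than the RP genes. Of 35 ribosome biogenesis genes, 32 fell and 1 rose in shControl cells (median -0.91), and 33 fell and 0 rose in sh*Ppargc1b* cells (median -0.69). *Dkc1*, the pseudouridine synthase of H/ACA particles, fell from 8.06 to 1.98 CPM (group means, -2.03 ± 0.22, adjusted p = 1.17e-06), and *Wdr43* was the one that rose (0.20 ± 0.06, adjusted p = 0.0164), a direction that turned under library totals (-0.04, adjusted p = 0.661). The *Wdr43* call was also lost without unstimulated shControl replicate 1 or 2. Of 11 RNA polymerase I genes measured, which make the ribosomal RNA precursor, 9 fell and 0 rose (median -0.36), with *Polr1b* falling most (-1.57 ± 0.14, adjusted p = 1.82e-07). Among 16 measured regulators of TOP mRNAs and of RP transcription, 2 rose and 6 fell in shControl cells. *Larp1*, which binds the TOP tract, rose from 202.8 to 347.6 CPM (0.78 ± 0.05, adjusted p = 1.6e-09), *Max* rose (1.09 ± 0.04, adjusted p = 3.42e-12), and its partner *Myc*, which activates ribosome biogenesis, fell from 34.8 to 14.0 CPM (-1.31 ± 0.12, adjusted p = 2.39e-07). Of 53 initiation factors tested, 24 fell and 6 rose (median -0.14). The 77 mitochondrial RP genes tested included 41 that fell and 11 that rose in shControl cells, with a median of -0.27 and an SD of 0.35 between genes, against 0.13 for the 77 cytosolic subunit genes.

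**Figure D5:**
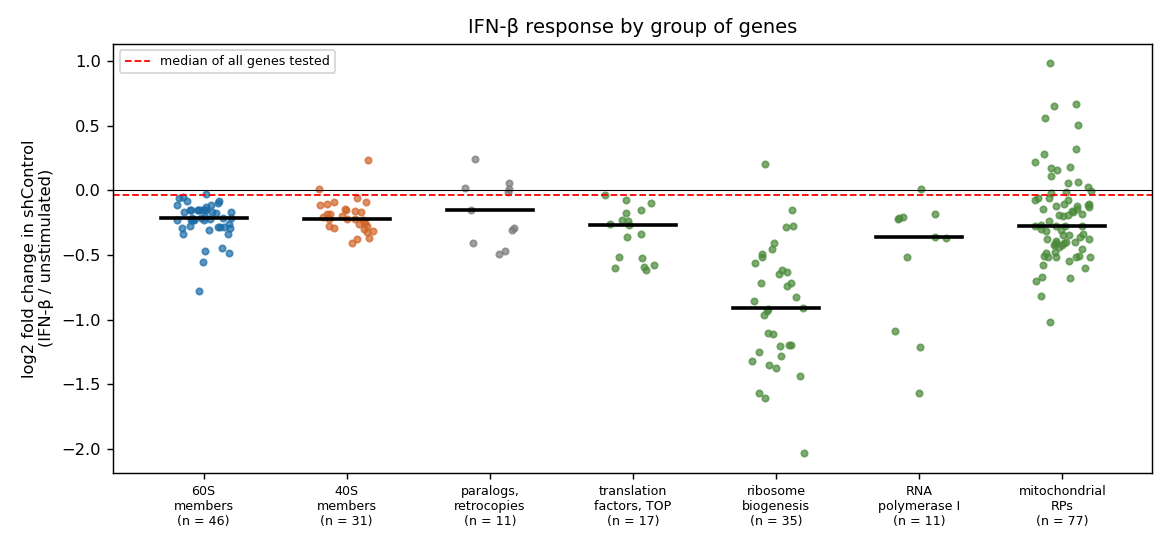
Log2 fold change with IFN-β in shControl cells of single genes (points) in 7 groups, with the group median (black bars) and the median of all genes tested (dashed line, -0.03). The cytosolic 60S and 40S genes lie close together around -0.22, the ribosome biogenesis genes spread from 0.20 to -2.03, and the mitochondrial RP genes spread on both sides of 0.

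Markers of proliferation and of other cell types were read in the same fits. Of 10 proliferation genes, 3 fell in shControl cells and 1 in sh*Ppargc1b* cells, and their summed level was 317 to 421 CPM unstimulated and 260 to 303 CPM with IFN-β in shControl cells; *Ccnb1* fell most (-0.99 ± 0.26, adjusted p = 0.00568). In sh*Ppargc1b* cells the ranges were 205 to 337 and 171 to 269 CPM. None of 8 neutrophil genes passed (35.7 to 74.1 and 31.4 to 76.2 CPM in shControl cells). Among 8 macrophage genes 5 rose, with the interferon-inducible *Fcgr1* first (3.09 ± 0.09, adjusted p = 1.8e-13), among 8 dendritic genes 2 rose, with *Dpp4* first (0.95 ± 0.12, adjusted p = 1.1e-05), and of 6 mast cell or basophil genes *Hdc* rose (2.79 ± 0.18, adjusted p = 2.98e-09) from a summed list level of 2.78 to 9.66 CPM to 7.13 to 14.2 CPM. In sh*Ppargc1b* cells the neutrophil list spanned 73.4 to 126 CPM unstimulated and 66.8 to 121 CPM with IFN-β. The part of these differences in the RP result was not tested.

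The library codes form 3 runs of 4 consecutive codes, each with all 4 groups once. Within each run the summed RP level was lower with IFN-β, with log2 ratios of -0.24, -0.16 and -0.22 in shControl cells and -0.09, -0.23 and -0.21 in sh*Ppargc1b* cells. Of the 88 members, 82, 78 and 83 were lower in shControl cells within the 3 runs, and 70, 79 and 79 in sh*Ppargc1b* cells, where 51.3% to 52.8% of all genes tested were lower in the same pairs of libraries. With the runs as a block, 64 members fell and 1 rose in shControl cells, where 26.3% of all genes fell, and 62 fell and 2 rose in sh*Ppargc1b* cells, where 23.2% did. In the same fit the knockdown with IFN-β gave 16 calls in place of 6. Of these, 14 were higher and 2 lower, where 15.1% of all genes were lower. The fit without the block had 4 higher and 2 lower, where 12.7% were lower.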

How the data were processed

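RNA-seq was measured in 12 libraries of transduced mouse bone marrow-derived dendritic cells, 3 in each of 4 groups taken from the labels. Replicates were numbered in record order, since the labels give no replicate number; the numbers coincide with the 3 runs of library codes, which were used as a block in an alternative only. The members, gene lists and tests were chosen with earlier results of these data known.

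Libraries were made by the authors from RNA freed of ribosomal RNA. Their read pairs went through Trim Galore (0.6.0 in the submitters' processing notes) and STAR (2.7.8a in those notes) on mm10 (GRCm38), and the deposited values are STAR's raw gene counts, which take a read pair only where it maps to 1 place. The strand setting was not given in the sources used here. Gene positions were taken from GENCODE M21 on GRCm38.

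The count model was that of edgeR 4.0.16 (R 4.3.3). Its filterByExpr (minimum count 10, minimum total 15) kept 18228 genes with 99.96% of the counts, including all 88 members. After TMM scaling, the 12 libraries entered 1 fit with a mean for each group. The 5 comparisons used its quasi-likelihood F-test, with Benjamini-Hochberg adjustment over all genes and a threshold of 0.05. The script was tested on simulated data. DESeq2 1.42.0, other scalings and filters, fits on fewer groups, a block for the library-code runs and leaving out each library were the alternatives, and summing members with their pseudogenes was added after the data were seen. Replicate pairs differed beyond sampling noise (chi-square per degree of freedom 8.54 to 21.3). Libraries whose codes lie in the same run deviated together weakly (correlation over genes 0.0276 to 0.146 in 18 pairs).

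Named genes were, per comparison, the 3 largest rises and falls past the threshold, members called against the majority, the 3 highest and lowest levels per kilobase, the P stalk, *Rpl5* and *Rpl11*, paralogs with their parents, 8 fixed genes outside the rule, and the largest rise and fall of each list. Some of these genes are not reported here. *Rps6*, *Rpsa*, *Rps24*, *Rpl34*, *Rpl14*, *Rpl35*, *Rpl23a* and the genes listed as passing in neither comparison were chosen after their values were seen, as were *Rps10* and *Rpl24*; *Rpl9* completes a count of 6. At this depth 76 of the 88 members had at least 1000 counts in every library.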

Additional observations from a re-analysis of the deposited data

How the results depend on the processing

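The fall of the members with IFN-β kept its direction under all 20 alternatives in both cell types. Under library totals the median was -0.46 in shControl and -0.38 in sh*Ppargc1b* cells, the summed level fell by 0.45 and 0.38 on the log2 scale, and 77 members fell in sh*Ppargc1b* cells, where 41.4% of all genes then fell. That scaling also gave the reversed values of *Rps20* (-0.006413), *Rps27l* (-0.0469 in sh*Ppargc1b* and -0.18 in shControl cells) and *Wdr43* (-0.0364). Leaving out 1 library gave 43 to 67 calls in shControl and 32 to 52 in sh*Ppargc1b* cells, medians of -0.25 to -0.18 and -0.19 to -0.12, and summed levels of -0.25 to -0.18 and -0.20 to -0.13. In those fits 19.8% to 25.2% of all genes fell in shControl and 17.6% to 20.1% in sh*Ppargc1b* cells. For the knockdown without IFN-β, leaving out 1 library gave 0 to 5 calls, medians of -0.005965 to 0.0652 and summed levels of -0.0157 to 0.0482, negative without sh*Ppargc1b* unstimulated replicate 3 and, for the summed level, also without shControl unstimulated replicate 2. With IFN-β it gave 3 to 16 calls, medians of 0.028 to 0.0881 and summed levels of 0.0164 to 0.0807, and for the interaction 0 calls and medians of -0.008337 (without sh*Ppargc1b* IFN-β replicate 3) to 0.0993. In the knockdown fits 8.37% to 11.3% of all genes were lower without IFN-β and 9.99% to 11.9% with it. The knockdown without IFN-β had 1 call with TMM computed without the members and 4 with every gene that has a count, where 10.6% and 3.97% of all genes were lower. The knockdown with IFN-β had 13 calls with library totals, 12 with every gene, 14 with only its 2 groups and 16 with the block for the library-code runs. Of these, 12, 10, 13 and 14 were higher and 1, 2, 1 and 2 lower. In the same fits 10.9%, 4.76%, 11.3% and 15.1% of all genes were lower. The cause of these changes was not tested. The labels carry no replicate number, so the block for the library-code runs, which coincide with the replicate numbers used here, is the only paired fit. Over the 83 values of named genes, the alternatives left 1555 on the same side of the threshold with the same direction, and 66 were weaker, 35 stronger and 4 reversed.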

Other observations

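*Rpl39l*, a paralog of *Rpl39* best known from testis, fell outside the minimum of 10 counts because of 1 library, and its counts followed the runs of library codes rather than the groups. In the order shControl unstimulated, shControl with IFN-β, sh*Ppargc1b* unstimulated and sh*Ppargc1b* with IFN-β, it had 10, 1, 11 and 16 counts in the first run, 59, 44, 96 and 74 in the second, and 145, 163, 166 and 126 in the third. Its parent *Rpl39* did not show this: it had 2750 to 5723 counts in all libraries. Its edgeR log2 fold change with IFN-β in shControl cells was -0.15 ± 0.93.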
